A study of Mus musculus with 12 samples.

Results

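The 33 genes described here are Trp53, which encodes the transcription factor p53, 3 regulators of p53 and 29 genes known as its targets. They were taken by symbol from a list drawn up with earlier results of these data known, with no threshold on any measured value, and all 33 were found among the 55471 genes of the count files. The members' values by line and by number are descriptions, read beside those of all genes. Of the 33, 31 passed the filter on low counts and could be tested, and Perp and Bcl2l15 could not. The counts come from RNA sequencing of 4 mouse melanoma cell lines, 3 libraries each: the lines MeVa2.1 and MeVa2.2, and a dOVA line under either name, MeVa2.1.dOVA and MeVa2.2.dOVA. Per the labels, every line comes from a subcutaneous skin tumour, has the genotype WT and was left untreated, so that no library received a p53-activating agent by design. What dOVA stands for is not spelled out in the labels, and a dOVA line is taken to derive from the line whose name it extends, called its parent. The series title presents MeVa2.1.dOVA as refractory to immune attack. Titles number the libraries of every line 1 to 3 without saying what a number stands for, and the deposited files of the same number share a code in their names whose meaning is not given either. Nothing states that replicates are separate cultures. A p-value here reflects spread among these samples alone, and that spread may be technical. Whether a line is a single clone is not given in the sources used here.

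p53 is kept scarce in resting cells by Mdm2, which marks it for destruction, and by Mdm4, which blocks its activity. Damage to DNA, stalled ribosomes or oncogene signals free p53, which then switches on genes that halt division, repair DNA, adjust metabolism or kill the cell, and also Mdm2 itself, which closes a feedback loop. Melanomas often keep the p53 gene intact and curb it in other ways, among them through loss of Cdkn2a, whose ARF product holds Mdm2 back.

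Gene counts were 16181816 to 19204452 in the 8 libraries numbered 1 or 2 and 26291546 to 35627069 in the 4 numbered 3, so that number and depth moved together. Levels are counts scaled to the same total of gene counts in each library (CPM), and values by library follow the replicate numbers 1, 2 and 3. Of 8 melanocyte markers, Mitf had a median of 13.7 CPM over the 12 libraries, and the medians of Sox10, Tyr, Tyrp1, Dct, Pmel, Mlana and Kit were between 0 and 0.346 CPM, so the genes of the pigment programme were at or near 0 in most libraries. MeVa2.2 replicate 1 stood apart, with Dct at 15.9, Tyrp1 at 12.3, Pmel at 6.39 and Mlana at 2.66 CPM, and MeVa2.2 replicate 3 had Dct at 2.28 and Tyrp1 at 2.09 CPM. Of 9 fibroblast markers, the collagens Col1a2 and Col1a1 were abundant, with medians of 1599.8 and 758 CPM. Pdgfra had a median of 85.8 and Pdgfrb of 43.8 CPM, and Postn, Dcn, Thy1, Fap and Lum of 0.214 to 6.10 CPM. The immune markers Cd3e, Cd4, Cd8a, Ms4a1 and Nkg7 were at 0 in all 12 libraries, while Cd14 was at 1.44 to 12.1 CPM and Lyz2 at up to 1.79 CPM, and keratinocyte and endothelial markers had medians of at most 1.82 CPM. In bulk samples such as these, more cells with a transcript and more transcript per cell cannot be told apart.

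Promoter sequence was looked at first, since p53 binds DNA directly. Its site is a pair of 10-base half-sites. RefSeq windows of 300 bases (250 before and 50 after the start, build GRCm38.p6) were found for 26 of the 33 genes, as 32 windows, and searched on both strands for 2 half-sites with no more than 13 bases between them. At most 2 mismatches were allowed outside the C and G of each core. Such a pair lay in the windows of 4 of the 26 genes, Cdkn1a, Ccng1, Gadd45a and Sesn1, against 4.71% of the 27025 genes with a window. Cdkn1a had a pair with 0 mismatches, which 0.074% of genes had, and Ccng1 a pair with 1 mismatch. The Cdkn1a window lies at chr17:29090729-29091028 on the plus strand, with the first base of the pair at position -73 from the start, and the Ccng1 window at chr11:40755237-40755536 on the minus strand, with its pair at position -195. Both are shown whole, as the closest matches among the members. Capitals mark only the pair with the fewest mismatches in a window. In that of Cdkn1a, the second half-site is followed directly by tgacatgttc, which forms another pair with it, with 1 mismatch, left in lower case. For Gadd45a (window at chr6:67037358-67037657, minus strand) and Sesn1 (window at chr10:41887189-41887488, plus strand), with 2 mismatches each, the pair alone is given.
Cdkn1a: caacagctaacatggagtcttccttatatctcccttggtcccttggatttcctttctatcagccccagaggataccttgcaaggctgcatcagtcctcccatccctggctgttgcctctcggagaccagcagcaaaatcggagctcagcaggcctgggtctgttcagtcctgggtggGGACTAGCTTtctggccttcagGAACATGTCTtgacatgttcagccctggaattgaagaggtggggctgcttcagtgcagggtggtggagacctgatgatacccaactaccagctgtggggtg
Ccng1: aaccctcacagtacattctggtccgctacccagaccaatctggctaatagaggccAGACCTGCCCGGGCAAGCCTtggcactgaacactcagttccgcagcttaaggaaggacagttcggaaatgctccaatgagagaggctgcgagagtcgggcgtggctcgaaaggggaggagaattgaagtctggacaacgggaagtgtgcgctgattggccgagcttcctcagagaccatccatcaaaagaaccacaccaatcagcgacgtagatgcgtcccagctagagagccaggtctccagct
Gadd45a: GGACCTGGTTggctgaGGGCTAGCCC
Sesn1: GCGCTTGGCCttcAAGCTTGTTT
A match describes letters in a window and is not a site of measured binding. Sites further away, such as those known in the introns of Mdm2 and Ccng1, lie outside such windows.

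Most of the p53 target genes were high in the same few libraries rather than in 1 line. The mean log2(CPM + 0.5) of the 31 tested genes was 6.31 in MeVa2.1.dOVA replicate 2 and 6.27 and 6.46 in MeVa2.2.dOVA replicates 1 and 2, 5.91 in MeVa2.2 replicate 2, and 5.13 to 5.66 in the other 8 libraries. Of the 31 tested genes, 16 had their highest level of all 12 libraries in MeVa2.2.dOVA replicate 2, where 14.2% of all 13985 tested genes had theirs, and 7 in MeVa2.1.dOVA replicate 2, against 11.6%. Within lines, replicate 2 was the highest for 18 of the 31 genes in MeVa2.1, 25 in its dOVA line, 23 in MeVa2.2 and 22 in its dOVA line, against 28.3%, 36.9%, 34.2% and 25.4% of all tested genes. In MeVa2.2.dOVA, replicate 3 was the lowest for 25 of 31, against 35% of all genes, so that replicates 1 and 2 lay above it together. The 11 genes Mdm2, Mdm4, Cdkn1a, Ccng1, Btg2, Trp53inp1, Tnfrsf10b, Eda2r, Aen, Phlda3 and Zmat3, were highest in replicate 2 of all 4 lines, which held for 7.15% of all tested genes. Sesn1 alone was lowest in replicate 2 of all 4 lines, which 14.2% of all genes were.

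**Figure D1:**
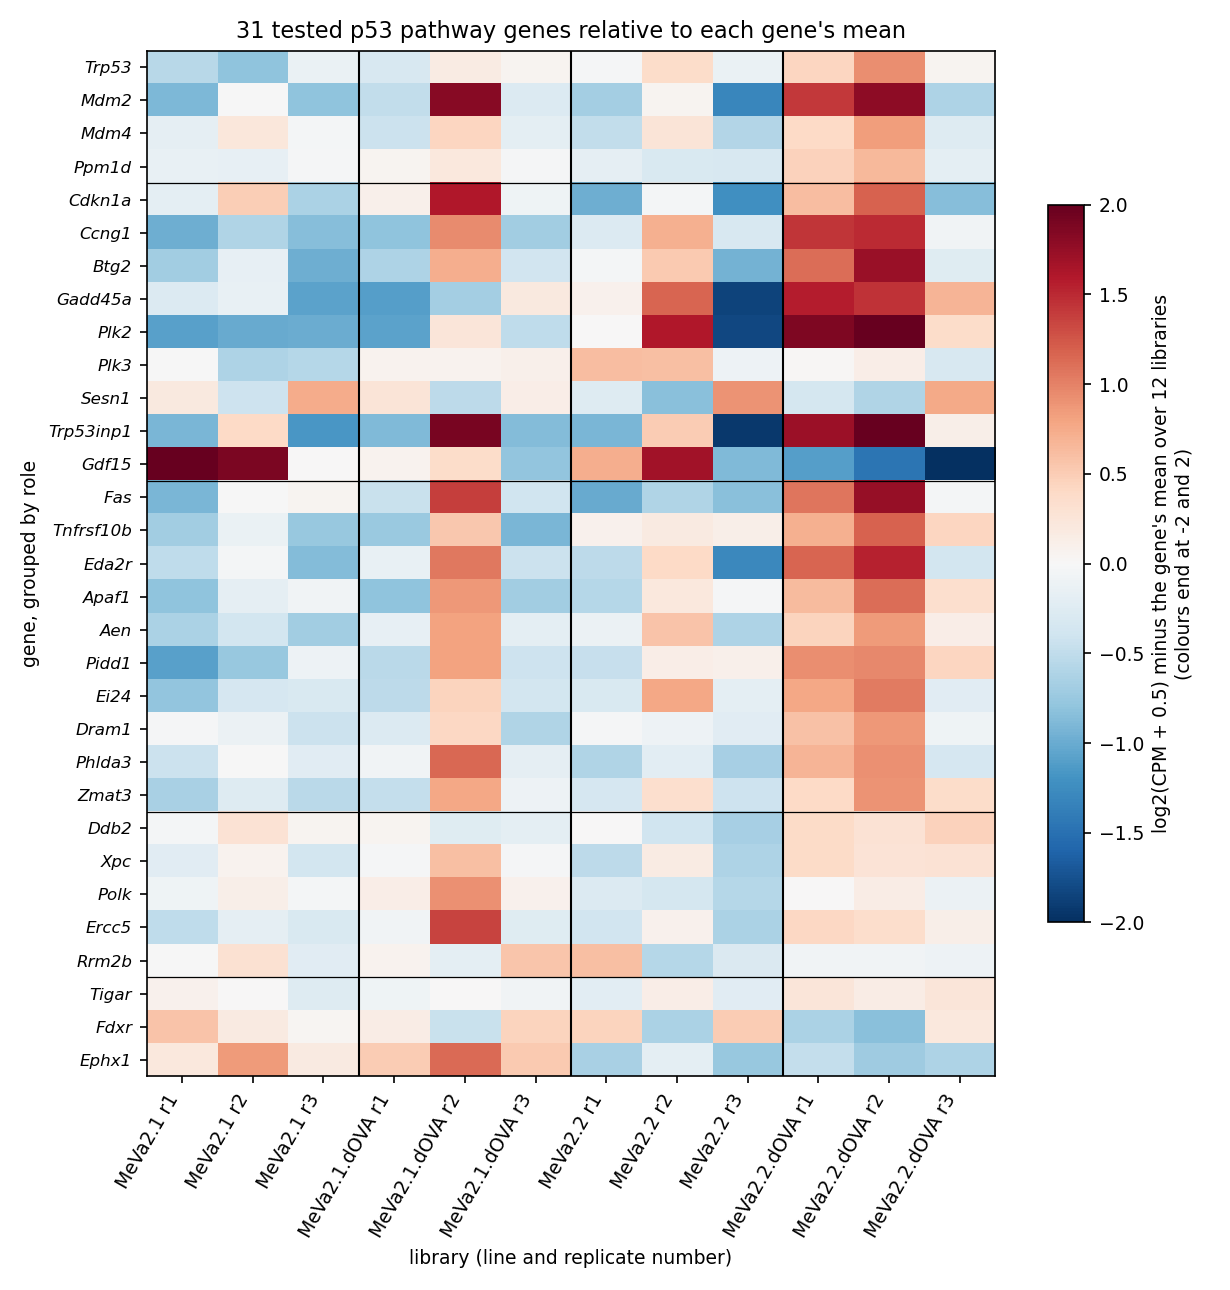
Level of the 31 tested genes (rows, grouped by role) in each of the 12 libraries (columns), as log2(CPM + 0.5) minus the gene's mean over the libraries, red above and blue below that mean. Red columns stand out at MeVa2.1.dOVA replicate 2 and at MeVa2.2.dOVA replicates 1 and 2, where Sesn1 and Fdxr are blue.

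Among p53 and its regulators, the feedback gene Mdm2 varied most, 8.67-fold between the highest and lowest library, and Trp53 mRNA 3.34-fold. Levels of Trp53, again by number, were 124, 104 and 166 CPM (MeVa2.1), 147, 205 and 191 (its dOVA line), 179, 235 and 166 (MeVa2.2) and 245, 348 and 189 (its dOVA line). The highest MeVa2.1 library lay just under the lowest of MeVa2.2, each dOVA line overlapped its parent, and replicate 2 was lowest in MeVa2.1 but highest in the other 3 lines. For Mdm2 the MeVa2.1 libraries held 241, 443 and 254 CPM and those of MeVa2.1.dOVA 316, 1572 and 371, while the values were 278, 467 and 181 for MeVa2.2 and 1188, 1552 and 291 for its dOVA line. The 3 highest libraries, all of the dOVA lines, lay at 1188 CPM or above and the other 9 at 467 CPM or below, so each dOVA line held both high and low libraries and overlapped its parent. Mdm4 stood at 133, 177 and 146 CPM in libraries 1 to 3 of MeVa2.1, next to 112, 204 and 132 for MeVa2.1.dOVA, whereas MeVa2.2 gave 107, 180.1 and 100.1 and its dOVA line 199.9, 271 and 127 CPM. Replicate 2 was the highest in each line, and the lines overlapped. Levels of Ppm1d, again by number, were 26.6, 26.5 and 29.3 CPM (MeVa2.1), 30.7, 34.5 and 29.1 (its dOVA line), 26.1, 24.0 and 23.7 (MeVa2.2) and 41.1, 46.8 and 25.9 (its dOVA line). Ppm1d, a phosphatase that switches the p53 response off, stayed within a 1.98-fold range over the 12 libraries, with MeVa2.2.dOVA replicates 1 and 2 the highest. Between replicates 2 and 3, taken over the 4 lines, Mdm2 was higher in replicate 2 (log2 fold change 1.71, SE 0.361, adjusted p = 0.00989) and so was Mdm4 (log2 fold change 0.78, SE 0.163, adjusted p = 0.0094), while Trp53 (log2 fold change 0.29, SE 0.212, adjusted p = 0.34) and Ppm1d (log2 fold change 0.32, SE 0.176, adjusted p = 0.198) did not pass the threshold of an adjusted p of 0.05.

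The growth arrest and stress genes held the 4 widest ranges over the libraries, those of Gdf15, Plk2, Trp53inp1 and Gadd45a. Cdkn1a encodes p21, the inhibitor of cyclin-dependent kinases through which p53 stops division, and Ccng1 encodes cyclin G1, a p53 target that works with a phosphatase on Mdm2. For Cdkn1a the MeVa2.1 libraries held 359, 574 and 264 CPM and those of MeVa2.1.dOVA 441, 1251 and 388, while the values were 207, 401 and 175 for MeVa2.2 and 631, 928 and 227 for its dOVA line. Ccng1 stood at 238, 311 and 259.7 CPM in libraries 1 to 3 of MeVa2.1, next to 269, 903 and 290.2 for MeVa2.1.dOVA, whereas MeVa2.2 gave 388, 768 and 374 and its dOVA line 1271, 1326 and 449 CPM. For Cdkn1a the highest library was MeVa2.1.dOVA replicate 2, and every line overlapped the others in part. For Ccng1, MeVa2.2.dOVA replicates 1 and 2 were the highest, and all MeVa2.1 values lay below all MeVa2.2 values. Levels of Trp53inp1, again by number, were 57.0, 142 and 47.7 CPM (MeVa2.1), 58.3, 406 and 58.6 (its dOVA line), 56.9, 153 and 27.9 (MeVa2.2) and 355, 447 and 117 (its dOVA line). Trp53inp1, a stress protein that promotes p53 activity, spanned 16-fold over the libraries, and in MeVa2.1.dOVA replicates 1 and 3 were level with MeVa2.1 replicate 1 while replicate 2 lay far above. For Btg2 the MeVa2.1 libraries held 12.1, 17.8 and 9.91 CPM and those of MeVa2.1.dOVA 12.8, 33.3 and 15.3, while the values were 19.4, 28.8 and 10.2 for MeVa2.2 and 43.8, 67.1 and 16.8 for its dOVA line. Btg2, which slows proliferation, was highest in MeVa2.2.dOVA replicate 2 and lowest in replicate 3 of 3 of the 4 lines. In replicate 2 against 3, Cdkn1a (log2 fold change 1.57, SE 0.222, adjusted p = 0.00465), Ccng1 (log2 fold change 1.20, SE 0.303, adjusted p = 0.0191), Trp53inp1 (log2 fold change 2.31, SE 0.329, adjusted p = 0.00465) and Btg2 (log2 fold change 1.42, SE 0.249, adjusted p = 0.00541) were all higher.

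**Figure D2:**
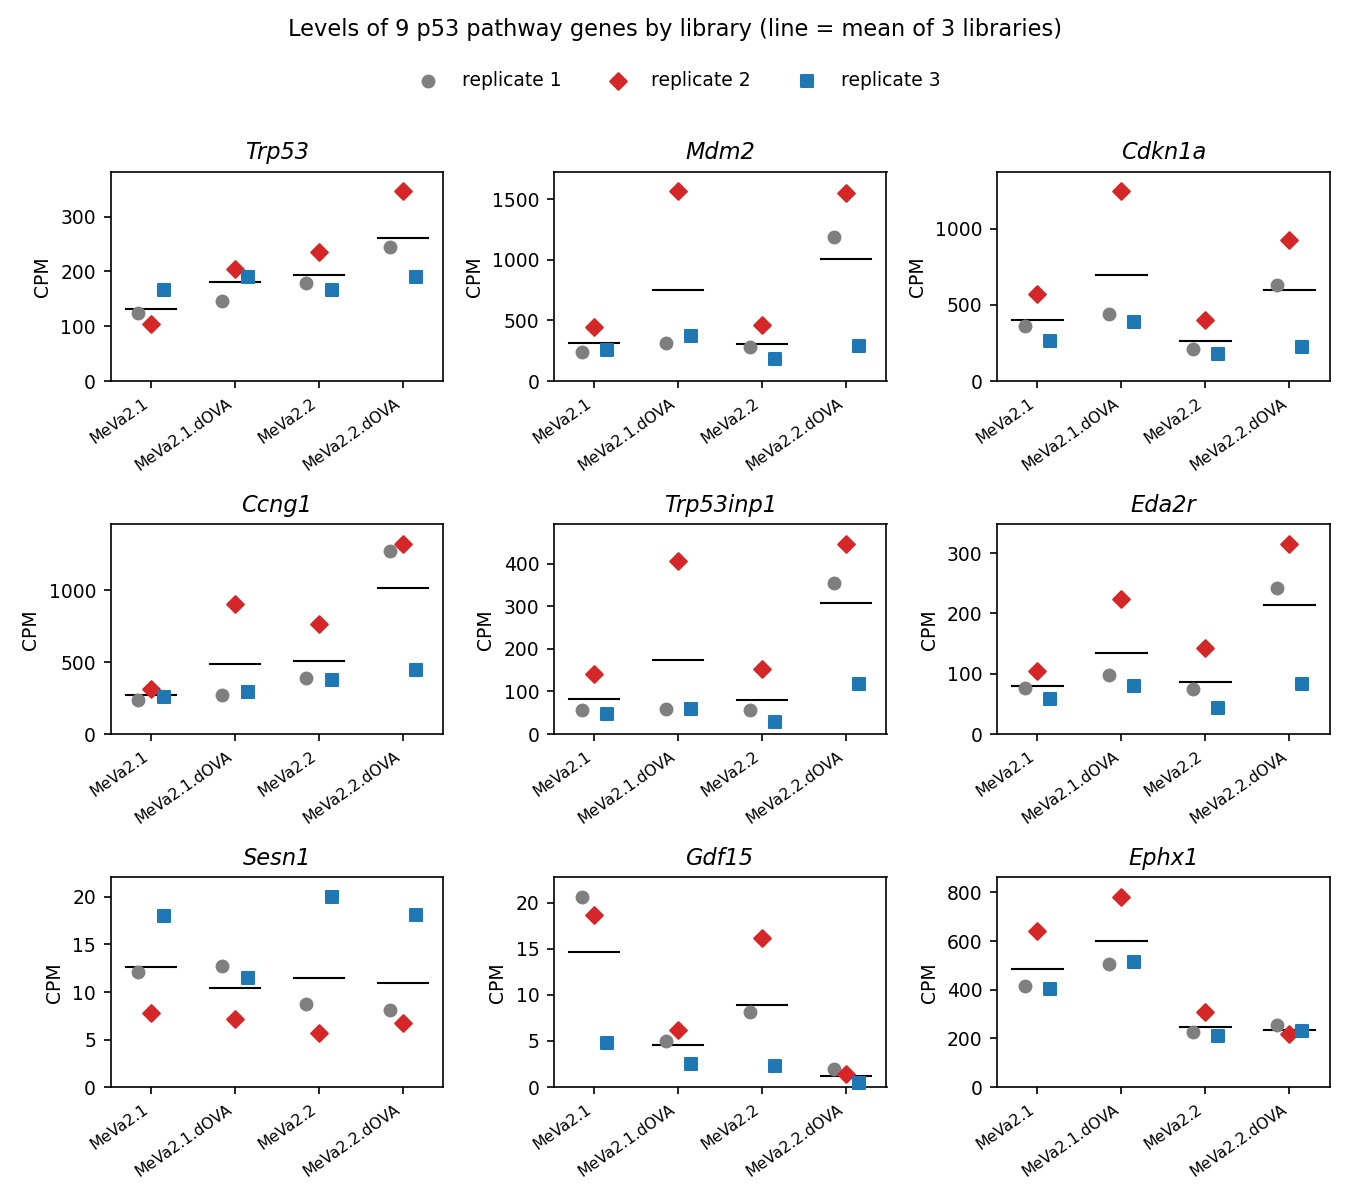
CPM (vertical axis, linear from 0) of 9 genes in the 3 libraries of each line, with a marker per replicate number and a black line at the line's mean. Mdm2, Cdkn1a, Ccng1, Trp53inp1 and Eda2r share high values in MeVa2.1.dOVA replicate 2 and MeVa2.2.dOVA replicates 1 and 2, Sesn1 is lowest in replicate 2 of each line, Gdf15 is lowest in MeVa2.2.dOVA, and Ephx1 separates the MeVa2.1 lines from the MeVa2.2 lines.

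The other stress genes of this role went several ways. The kinase gene Plk2 averaged 67.5 ± 2.48 CPM (SD, n = 3) for MeVa2.1, 109 ± 50.2 for its dOVA line, 199 ± 198 for MeVa2.2 and 474 ± 281 for its dOVA line, and was higher in replicate 2 than in 3 (log2 fold change 1.55, SE 0.481, adjusted p = 0.0396), a call kept in 5 of the 12 fits without 1 library. Gadd45a, a sensor of DNA damage, had its highest level in MeVa2.2.dOVA replicate 1, at 329.5 CPM, and its lowest in MeVa2.2 replicate 3, at 30.2 CPM, and did not pass the test by replicate (log2 fold change 0.92, SE 0.521, adjusted p = 0.213). Its line means were 80.9, 82.2, 132 and 269 CPM, with each parent followed by its dOVA line and MeVa2.1 first. The kinase gene Plk3, with line means of 45.8, 62.8, 78.9 and 57.7 CPM, did not pass either (log2 fold change 0.36, SE 0.166, adjusted p = 0.133). Sesn1 stood at 12.1, 7.76 and 18.0 CPM in libraries 1 to 3 of MeVa2.1, next to 12.7, 7.12 and 11.5 for MeVa2.1.dOVA, whereas MeVa2.2 gave 8.70, 5.69 and 20 and its dOVA line 8.14, 6.72 and 18.1 CPM. Sesn1, a sestrin that restrains growth signalling under stress, had the lowest value of each line in replicate 2 and no separation between any pair of lines. It was the only one of the 31 genes lower in replicate 2 than in 3 past the threshold (log2 fold change -1.23, SE 0.233, adjusted p = 0.00685). Levels of Gdf15, again by number, were 20.7, 18.7 and 4.74 CPM (MeVa2.1), 5.01, 6.20 and 2.53 (its dOVA line), 8.11, 16.2 and 2.32 (MeVa2.2) and 1.94, 1.39 and 0.416 (its dOVA line). Gdf15, a secreted stress cytokine, was high in replicates 1 and 2 of MeVa2.1 and replicate 2 of MeVa2.2 and lowest in the 3 libraries of MeVa2.2.dOVA, a 49.8-fold range, and so did not follow Mdm2 across lines. Within lines replicate 3 was the lowest of each, and Gdf15 was higher in replicate 2 than in 3 (log2 fold change 2.05, SE 0.302, adjusted p = 0.00465) and lower in replicate 3 than in 1 (log2 fold change -1.77, SE 0.301, adjusted p = 0.0394). The second of these calls was lost in 9 of the 12 fits that left out 1 library.

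Of the genes of cell death and its receptors, 10 were tested, all 10 had a positive log2 fold change in replicate 2 against 3, and 7 were higher past the threshold. For Eda2r the MeVa2.1 libraries held 76.0, 105 and 58.8 CPM and those of MeVa2.1.dOVA 97.2, 224 and 80.1, while the values were 74.5, 142 and 44.0 for MeVa2.2 and 242, 316 and 83.8 for its dOVA line. Eda2r, a receptor for ectodysplasin A2, was highest in replicate 2 and lowest in replicate 3 of all 4 lines (log2 fold change 1.55, SE 0.213, adjusted p = 0.00465). Tnfrsf10b stood at 21.3, 31.8 and 20.3 CPM in libraries 1 to 3 of MeVa2.1, next to 20.6, 50.9 and 18.2 for MeVa2.1.dOVA, whereas MeVa2.2 gave 37.0, 39.7 and 37.7 and its dOVA line 57.0, 79.5 and 46.8 CPM. For Tnfrsf10b, the mouse TRAIL death receptor, the MeVa2.2.dOVA libraries all lay above those of MeVa2.2, and the MeVa2.1 libraries below those of MeVa2.2 (log2 fold change 0.85, SE 0.207, adjusted p = 0.017 between replicates 2 and 3). Levels of Fas, again by number, were 1.3, 2.86 and 3.0 CPM (MeVa2.1), 1.98, 8.33 and 2.07 (its dOVA line), 1.18, 1.74 and 1.41 (MeVa2.2) and 6.63, 10.9 and 2.79 (its dOVA line). Fas, the receptor of Fas ligand, was highest in the same 3 libraries as Mdm2 and did not pass the threshold between replicates 2 and 3 (log2 fold change 1.12, SE 0.423, adjusted p = 0.075).

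Inside the cell, Apaf1 forms the apoptosome that activates caspase 9, Aen is a nuclease of apoptotic DNA, and Zmat3 binds RNA and limits growth. For Apaf1 the MeVa2.1 libraries held 39.5, 61.3 and 66.2 CPM and those of MeVa2.1.dOVA 39.6, 127 and 42.9, while the values were 46.6, 81.1 and 68.7 for MeVa2.2 and 108, 152 and 87.7 for its dOVA line. Aen stood at 60.4, 72.2 and 57.5 CPM in libraries 1 to 3 of MeVa2.1, next to 83.3, 164 and 81.5 for MeVa2.1.dOVA, whereas MeVa2.2 gave 86.5, 139 and 61.1 and its dOVA line 127, 169 and 103 CPM. Levels of Zmat3, again by number, were 151, 198 and 163 CPM (MeVa2.1), 170.4, 404 and 222 (its dOVA line), 188, 299 and 178 (MeVa2.2) and 313, 444 and 307 (its dOVA line). In each of these, MeVa2.2.dOVA replicate 2 and MeVa2.1.dOVA replicate 2 were the highest libraries of all. Aen (log2 fold change 0.90, SE 0.148, adjusted p = 0.00482) and Zmat3 (log2 fold change 0.70, SE 0.144, adjusted p = 0.00906) were higher in replicate 2 than in 3 and Apaf1 fell short (log2 fold change 0.71, SE 0.253, adjusted p = 0.0634), although Apaf1 passed the joint test of the 3 numbers (adjusted p = 0.0398). For Phlda3 the MeVa2.1 libraries held 82.5, 110.4 and 95.5 CPM and those of MeVa2.1.dOVA 106, 247 and 98.5, while the values were 73.2, 96.8 and 70.2 for MeVa2.2 and 179, 209.9 and 88.3 for its dOVA line. Ei24 stood at 81.5, 112 and 114 CPM in libraries 1 to 3 of MeVa2.1, next to 97.5, 192 and 109.5 for MeVa2.1.dOVA, whereas MeVa2.2 gave 114, 240.4 and 122 and its dOVA line 241, 289 and 121 CPM. Phlda3, which blocks Akt, was highest in MeVa2.1.dOVA replicate 2, and Ei24, a protein of the endoplasmic reticulum, in MeVa2.2.dOVA replicate 2. Both passed between replicates 2 and 3 (log2 fold change 0.89, SE 0.225, adjusted p = 0.0193 for Phlda3 and log2 fold change 0.81, SE 0.233, adjusted p = 0.03 for Ei24), a call kept by Phlda3 in 8 and by Ei24 in 6 of the 12 fits without 1 library. Dram1, an autophagy gene at 1.70 to 5.60 CPM, also passed (log2 fold change 0.81, SE 0.253, adjusted p = 0.0409) but kept the call in only 2 of those fits, and Pidd1, which assembles the PIDDosome and had line means of 11.4, 18.4, 16.6 and 30.4 CPM, did not (log2 fold change 0.36, SE 0.301, adjusted p = 0.392). Perp, a desmosome protein and death effector, had 0 counts in the 6 libraries of MeVa2.1 and its dOVA line, which allows at most 0.0409 and 0.0439 CPM over each line (3 counts, counting error only), and 6 counts for MeVa2.2 and 1 for its dOVA line. Bcl2l15 had 3, 5, 4 and 1 counts by line, in the order used above, and 21.0% of its exon length overlaps Gm43064 on the same strand.

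Repair and metabolism genes ranged from 1.44-fold (Tigar) to 3.99-fold (Ercc5) over the libraries, and 4 of the 8 were higher in replicate 2 than in 3. Xpc and Ddb2 recognise damage in nucleotide excision repair, Ercc5 cuts beside it, Polk copies past it, and Rrm2b supplies nucleotides. Ercc5 (log2 fold change 0.78, SE 0.232, adjusted p = 0.0339), Xpc (log2 fold change 0.56, SE 0.16, adjusted p = 0.0292) and Polk (log2 fold change 0.46, SE 0.146, adjusted p = 0.0421) were higher in replicate 2 than in 3. Of the 12 fits without 1 library, Ercc5 and Xpc kept the call in 5 each and Polk in 1. Each of these 3 had its highest level in MeVa2.1.dOVA replicate 2, at 145, 35.1 and 143 CPM. Ddb2 ranged from 2.89 to 6.86 CPM and Rrm2b from 16.7 to 37.9 CPM, with log2 fold changes of 0.17 and -0.02 that did not pass (adjusted p = 0.58 and 0.971). For Ddb2, 23.8% of the exon length overlaps Acp2 on the opposite strand, and the strand setting used in counting is not given in the sources used here. Mean levels of Ddb2 by line, each parent followed by its dOVA line and MeVa2.1 first, were 5.26, 4.42, 3.79 and 6.49 CPM, and those of Xpc 20.5, 26.7, 18.8 and 28.7 CPM. For Polk they were 75.8, 102, 57.5 and 76.7 CPM, for Ercc5 45.1, 82.4, 46.7 and 69.7 CPM and for Rrm2b 25.7, 28.2, 25.0 and 23.6 CPM. MeVa2.2 had the lowest mean in 3 of these 5, and Rrm2b differed least between lines. Tigar, which lowers glycolytic flux, was the steadiest gene, within a 1.44-fold range. Fdxr, a mitochondrial reductase, had a negative log2 fold change and did not pass (log2 fold change -0.71, SE 0.255, adjusted p = 0.0647). Levels of Ephx1, again by number, were 414, 641 and 401 CPM (MeVa2.1), 504, 783 and 512 (its dOVA line), 226, 309.9 and 209 (MeVa2.2) and 256, 217 and 231 (its dOVA line). For Ephx1, an epoxide hydrolase that detoxifies reactive compounds, all 6 libraries of the MeVa2.1 lines lay above all 6 of the MeVa2.2 lines, and replicate 2 was highest in each line but MeVa2.2.dOVA.

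Compared per exon length, as CPM per kilobase of exon (RPKM, mean over the 12 libraries), Ephx1 was the most abundant of the 33 at 201 RPKM, followed by Ccng1 at 162, Cdkn1a at 137 and Mdm2 at 117 RPKM. Gadd45a had 79.9, Phlda3 77.9 and Trp53 47.4 RPKM. Mdm2 mRNA was thus above that of Mdm4, at 10.6 RPKM, on the same scale. The death receptors were scarcer, with Tnfrsf10b at 7.04 and Fas at 1.79 RPKM, and Dram1 was the lowest tested gene at 0.983 RPKM. The first place depended on the line: Ephx1 led in MeVa2.1 (249 RPKM) and MeVa2.1.dOVA (307 RPKM), but Ccng1 was above it in MeVa2.2 (145 against 127 RPKM), and in MeVa2.2.dOVA Ephx1 (120.4 RPKM) was below Ccng1 (289), Mdm2 (199), Cdkn1a (168) and Gadd45a (152 RPKM). The order over all libraries rests on means over libraries that differ by up to 19.0-fold in 1 gene (Plk2) and 49.8-fold in another (Gdf15), and neighbours in it, such as Gadd45a and Phlda3, do not differ beyond that spread.

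Counted over all replicate numbers, 16 of the 31 genes differed in the joint test of the number, against 20.1% of all tested genes (edgeR quasi-likelihood test, model with line and number). They were Mdm2, Mdm4, Cdkn1a, Ccng1, Btg2, Sesn1, Trp53inp1, Gdf15, Tnfrsf10b, Eda2r, Apaf1, Aen, Ei24, Phlda3, Zmat3 and Ephx1, with adjusted p from 0.0110 (Trp53inp1) to 0.0467 (Ephx1). An unadjusted p under 0.05 was found for 22 genes, against 5364 of all 13985 tested genes. The share of the members is above that of all genes, but the members were chosen with results of these data known, and the share supports nothing by itself. DESeq2 called 20, against 4223 of all 13985 tested genes. The counts with a library left out are given without the count over all genes and show sensitivity alone. With library 2 of MeVa2.1.dOVA left out the count was 6, and with library 2 of MeVa2.2 left out it was 7. It was 10 when library 1 of MeVa2.1, library 1 of MeVa2.1.dOVA or library 2 of MeVa2.2.dOVA was left out.

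Taken in pairs of numbers, most calls fell in replicate 2 against 3. Against replicate 3, 19 of 31 genes were higher and 1 lower, where 11.6% of all genes were higher and 13.8% lower, and the median log2 fold change of the 31 was 0.78 against -0.01 for all genes. By role, 2 of 4 regulators, 6 of 9 brakes and stress genes, 7 of 10 death genes, 3 of 5 repair genes and 1 of 3 metabolism genes were higher. Against replicate 1, where 2.83% of all genes were called and 0.93% were higher, 4 genes were higher and none lower: Trp53inp1 (log2 fold change 1.5), Cdkn1a (0.97), Zmat3 (0.77) and Aen (0.66). Another 17 had an unadjusted p under 0.05 there without passing, where 3791 of all 13985 tested genes, called ones included, were under 0.05. Replicate 3 against 1 gave Gdf15 alone, lower, where 0.636% of all genes were called and 0.486% were lower. These 3 differences share libraries and are not independent of one another.

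Single libraries move these counts, which are given here without the count over all genes and show sensitivity alone. The count of 20 against replicate 3 was 10 when library 2 of MeVa2.1.dOVA was left out, and 12 when library 3 of the same line, library 2 of MeVa2.2 or library 3 of MeVa2.2.dOVA was. The count of 4 against replicate 1 was 11 when library 1 of MeVa2.2.dOVA, in which the target genes were high, was left out, 10 when library 3 of that line was, and 8 when library 2 of MeVa2.1 was. It was 0 when the library left out was number 1 of MeVa2.1, any of MeVa2.1.dOVA, number 1 or 2 of MeVa2.2, or number 2 of MeVa2.2.dOVA. Over all 12 libraries DESeq2 called 13, against 1852 of all 13985 tested genes. The Gdf15 call in replicate 3 against 1 was lost when the library left out was number 1 or 3 of MeVa2.1, number 1 or 2 of MeVa2.1.dOVA, number 1 or 3 of MeVa2.2, or any of MeVa2.2.dOVA. Mdm2, Mdm4, Cdkn1a, Btg2, Sesn1, Trp53inp1, Gdf15, Eda2r, Aen and Zmat3 kept their call against replicate 3 in all 12 fits that left out 1 library.

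**Figure D3:**
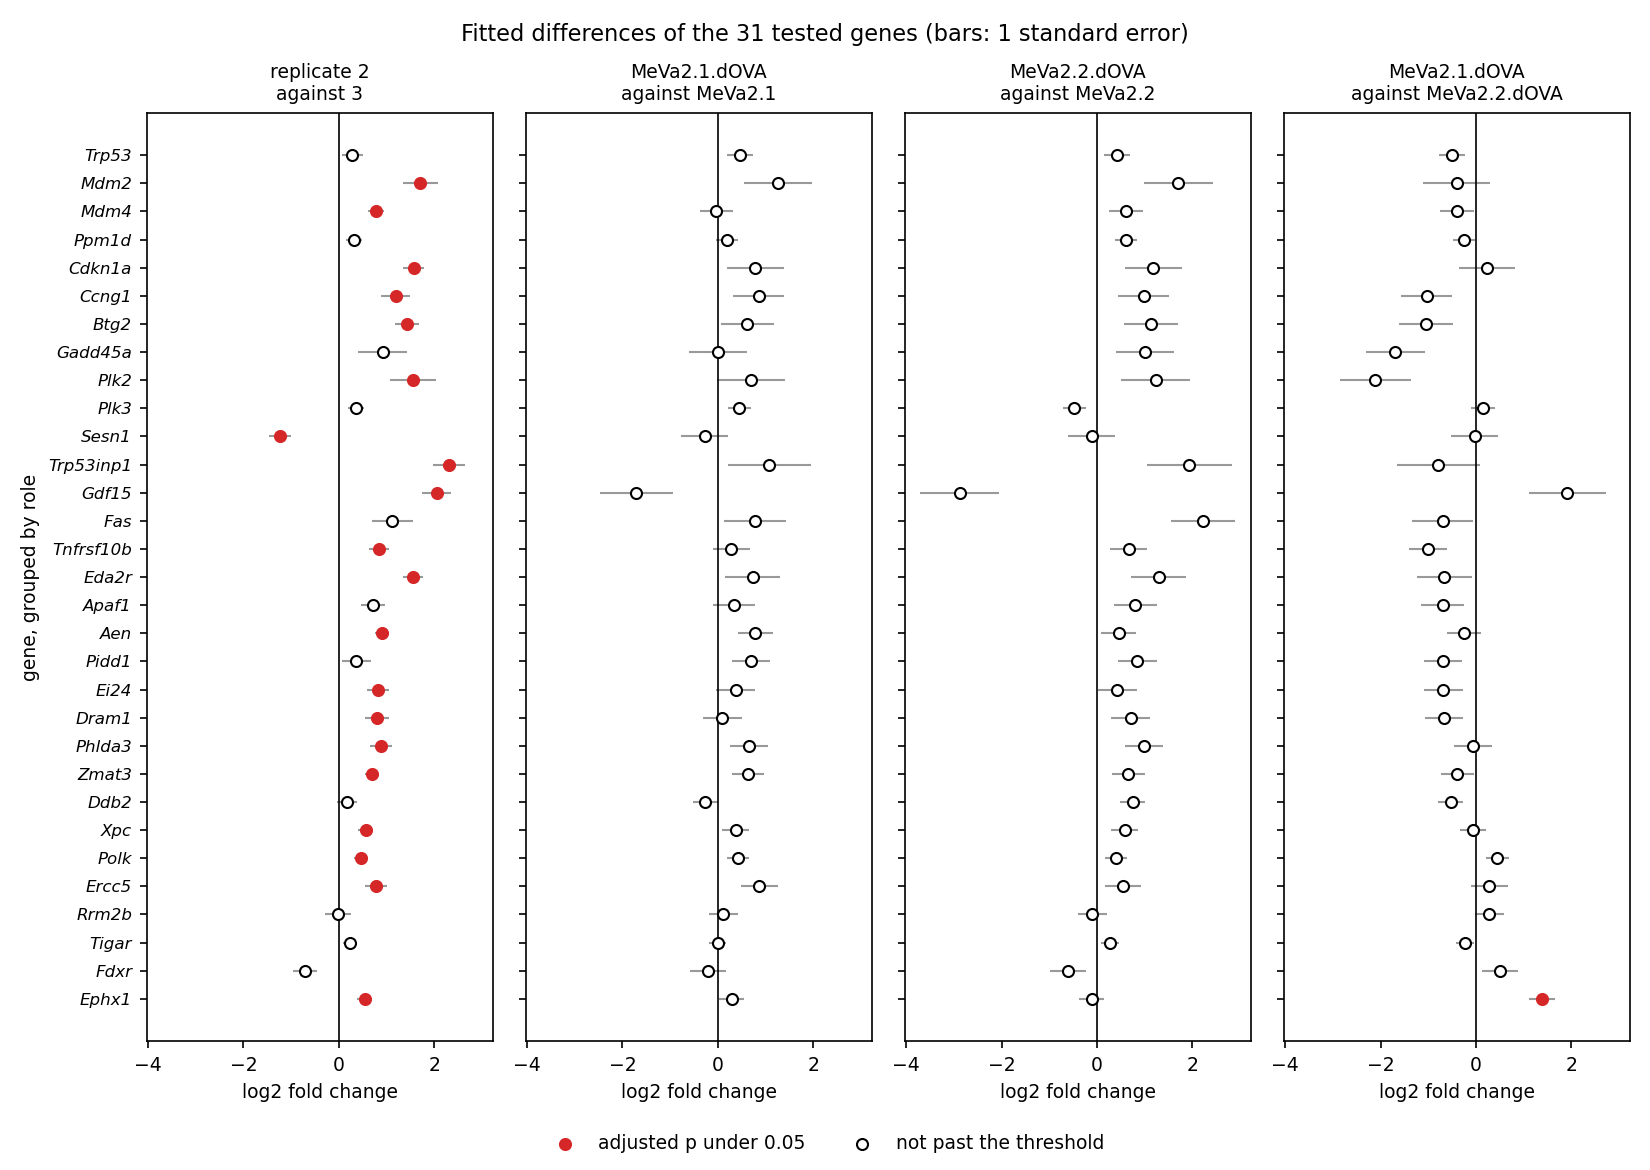
Log2 fold change (horizontal axis, bars of 1 SE) of the 31 tested genes in replicate 2 against 3 over the 4 lines and in 3 comparisons between lines, with filled red points where the adjusted p is under 0.05. The first panel holds 20 red points, 19 of them above 0, the 2 comparisons of a dOVA line with its parent hold none, and the comparison of the dOVA lines holds Ephx1 alone. The first panel comes from the model with line and number and the others from the model with line alone, so their counts are not alike. With the number as a block, the 3 line comparisons shown gave 1, 8 and 7 calls.

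MeVa2.1.dOVA, the line presented as immune-refractory, did not differ from MeVa2.1 in any p53 target past the threshold in the fit without the replicate number. Its mean was higher in Mdm2 (log2 fold change 1.27, SE 0.712, adjusted p = 0.554), Cdkn1a (log2 fold change 0.79, SE 0.597, adjusted p = 0.687) and Ccng1 (log2 fold change 0.86, SE 0.537, adjusted p = 0.607), but MeVa2.1.dOVA replicate 2 lay far above replicates 1 and 3, which lay within the range of MeVa2.1 for these 3 genes. The median log2 fold change of the 31 genes was 0.43, against 0.00 for all genes, with 25 of 31 positive. Of the 31, 0 were called by edgeR's quasi-likelihood test, where 0.486% of all genes were. An unadjusted p under 0.05 was found for 2 (Ercc5 and Gdf15), against 1567 of all 13985 tested genes, and DESeq2 called 0, against 394. Libraries did not overlap for Plk3 and Aen, both higher in MeVa2.1.dOVA, where 10.7% of all genes were higher without overlap, and 0 of the 31 were lower, against 10.4%. When same-numbered libraries were set against each other, 16 of 31 genes were higher in MeVa2.1.dOVA in all 3 pairs, among them Trp53, Mdm2, Cdkn1a, Ccng1 and Zmat3, where 24.8% of all genes were, and Gdf15 was lower in all 3. The fibroblast marker Dcn was lower in MeVa2.1.dOVA (log2 fold change -2.32, SE 0.395, adjusted p = 0.0328), and its part in the target levels was not tested. With the replicate number as a block, 1 gene was called, Gdf15, lower in MeVa2.1.dOVA (log2 fold change -1.5, SE 0.332, adjusted p = 0.0439), where 2.6% of all genes were called.

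In MeVa2.2.dOVA against MeVa2.2 the median fitted difference was larger than in the MeVa2.1 pair, and again none passed in the fit without the replicate number. Fas (log2 fold change 2.22, SE 0.675, adjusted p = 0.126) and Mdm2 (log2 fold change 1.71, SE 0.72, adjusted p = 0.265) had higher means in MeVa2.2.dOVA and Gdf15 a lower one (log2 fold change -2.88, SE 0.821, adjusted p = 0.104). By number, Fas lay at 6.63, 10.9 and 2.79 CPM in the dOVA line, all above the 1.18, 1.74 and 1.41 CPM of MeVa2.2. Of the 31 genes, edgeR's quasi-likelihood test called 0, where 1.99% of all genes were called. An unadjusted p under 0.05 was found for 7, against 2298 of all 13985 tested genes. DESeq2 called 3, Ddb2, Fas and Gdf15, against 974 of all. The median log2 fold change was 0.66 against -0.02 for all genes, with 25 of 31 positive. Without overlap, 10 genes were higher, Fas, Tnfrsf10b, Apaf1, Pidd1, Zmat3, Ddb2, Xpc, Polk, Ercc5 and Tigar, where 9.83% of all genes were, and Gdf15 was lower without overlap, where 7.49% were. Of the 12 fits without 1 library, only that without MeVa2.2.dOVA replicate 3 called any, 1 gene. That fit leaves out the library of that line with the lowest Mdm2. With the replicate number as a block, 8 genes were called, where 7.75% of all genes were. Mdm2, Cdkn1a, Btg2, Trp53inp1, Fas, Eda2r and Zmat3 were higher and Gdf15 lower. The block rests on weaker pairing here, since the libraries numbered 1 deviated from their line means with a correlation of only 0.0815. Of 16 interferon-stimulated genes, Ddx58 and Gbp3 were higher in MeVa2.2.dOVA, where 59 of all 13985 tested genes were. Oas1a and Oas2 lay at 1.83 to 17.1 and 4.37 to 39.2 CPM there and at no more than 0.118 and 0.710 CPM in the other lines. They passed the filter on low counts only through MeVa2.2.dOVA, so their tests are not given. The mean log2(CPM + 0.5) of the 16 was, by number, 5.16, 4.63 and 6.53 in the dOVA line and 4.34, 2.85 and 1.64 in its parent. Fibroblast and melanocyte markers also had lower means there: 9 of 9 tested fibroblast markers had a negative log2 fold change (median -2.02), with Dcn and Pdgfra past the threshold, and 5 of 5 tested melanocyte markers did (median -3.38), none past it by edgeR, 3 at an unadjusted p under 0.05 and 1 by DESeq2. Thy1 was at no more than 0.485 CPM in the dOVA lines. It passed the filter only through the parents, so its test is not given. The melanocyte markers were uneven within MeVa2.2: by number, Dct lay at 15.9, 0 and 2.28 CPM and Tyrp1 at 12.3, 0 and 2.09 CPM. The part of these lists in the p53 target levels was not tested.

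The parent lines differed little in the target genes as a list, with a median log2 fold change of 0.04 for MeVa2.1 against MeVa2.2 and 16 of 31 positive, and individual genes went either way. Ephx1 was nearest to the threshold, higher in MeVa2.1 (log2 fold change 0.99, SE 0.265, adjusted p = 0.0617), and Plk3 next, lower (log2 fold change -0.77, SE 0.245, adjusted p = 0.114). Of the 31, 0 were called by edgeR's quasi-likelihood test, where 4.48% of all genes were. An unadjusted p under 0.05 was found for 2, against 2462 of all 13985 tested genes. DESeq2 called 1, Ephx1, against 1207 of all. Without MeVa2.1.dOVA replicate 2 or without MeVa2.2 replicate 3, 1 gene was called. With the replicate number as a block, Ephx1 (log2 fold change 0.97, SE 0.173, adjusted p = 0.00663) and Plk3 (-0.75, SE 0.193, adjusted p = 0.0351) were called, where 9.51% of all genes were. Without overlap, Ppm1d, Polk and Ephx1 were higher in MeVa2.1 and Trp53, Ccng1, Tnfrsf10b and Ei24 lower, where 12% and 11.4% of all genes were. In same-numbered libraries, MeVa2.1 was higher in all 3 pairs for 7 genes and lower for 10, close to the 23.4% and 23.8% of all genes in the first case and above it in the second.

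Between the dOVA lines, Ephx1 was the 1 gene of 31 that differed: it was at 599.6 ± 159 CPM (SD, n = 3) in MeVa2.1.dOVA and 235 ± 19.3 CPM in MeVa2.2.dOVA (log2 fold change 1.39, SE 0.267, adjusted p = 0.00675, edgeR). The call held in all 19 alternatives, with log2 fold changes of 1.11 to 1.5. The 1 call in 31 lies under the background of 11.3% of all genes called, 6.45% higher. Plk2 (log2 fold change -2.11, SE 0.742, adjusted p = 0.0928) and Gadd45a (log2 fold change -1.69, SE 0.62, adjusted p = 0.106) had lower means in MeVa2.1.dOVA and their libraries did not overlap, nor did those of Ddb2 and Tigar, which lay lower, or of Gdf15, which lay higher. Of all genes 16% were lower and 14% higher without overlap. In all 3 same-numbered pairs, 16 genes were lower in MeVa2.1.dOVA, among them Ccng1, Plk2, Fas, Eda2r and Zmat3, where 28.5% of all genes were, and 4 were higher, where 25.2% were. With the replicate number as a block, 7 genes were called, where 22% of all genes were: Ephx1 and Gdf15 higher in MeVa2.1.dOVA, and Plk2, Ccng1, Trp53inp1, Tnfrsf10b and Btg2 lower, with log2 fold changes from -1.95 (Plk2) to -0.94 (Btg2). The block rests on weak pairing here too. The deviations of the libraries numbered 1 correlated at only 0.105, while MeVa2.1.dOVA replicate 1 and MeVa2.2.dOVA replicate 3 reached 0.315. Without the block, leaving out library 2 of MeVa2.1.dOVA gave 5 calls, leaving out library 3 of MeVa2.2 gave 3, and leaving out library 2 of MeVa2.2 or library 3 of its dOVA line gave 2. These counts are given without the count over all genes and show sensitivity alone. DESeq2 called 3, against 2428 of all 13985 tested genes. Of the 16 interferon-stimulated genes, 13 were lower in MeVa2.1.dOVA than in the other dOVA line, where 672 of all 13985 tested genes were. Among the 13, Usp18, Rsad2, Oas1a and Oas2 were at no more than 0.162 CPM in the MeVa2.1 lines. These passed the filter only through the MeVa2.2 lines, so their calls are not read. The part of the interferon-stimulated genes in these differences was not tested. With only the 8 libraries numbered 1 and 3, 2 genes were called here and none in the other 4 comparisons of lines.

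Whether the step from parent to dOVA line differed between the origins was tested as a difference of differences. The smallest p-values belonged to Ddb2 (log2 fold change -1.02, SE 0.371, adjusted p = 0.423) and Plk3 (log2 fold change 0.92, SE 0.345, adjusted p = 0.452), both short of the threshold. EdgeR's quasi-likelihood test called 0 of 31 genes, where 0.0858% of all genes were called. An unadjusted p under 0.05 was found for 2, against 1187 of all 13985 tested genes, and DESeq2 called 0, against 272. For Mdm2 the difference was -0.44 with an SE of 0.992, more than its own size.

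**Figure D4:**
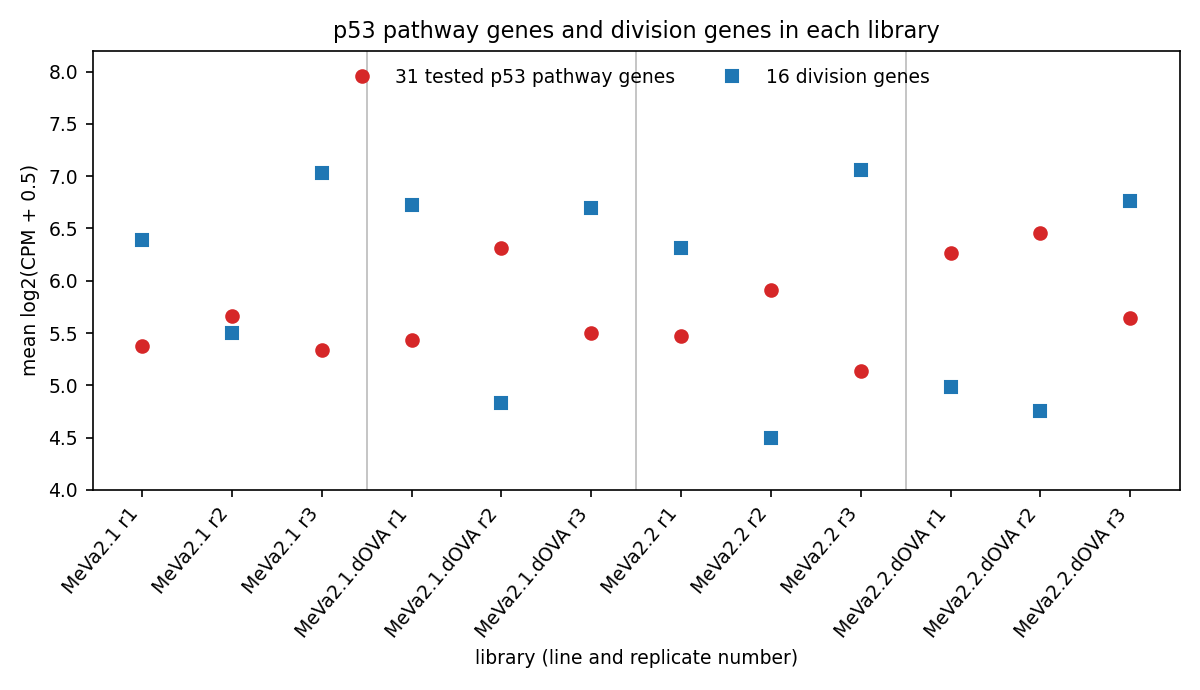
Mean log2(CPM + 0.5) of the 31 tested p53 pathway genes (red circles) and of 16 cell-division genes (blue squares) in each library, with vertical lines between cell lines. The circles are highest, at 6.27 to 6.46, in MeVa2.1.dOVA replicate 2 and MeVa2.2.dOVA replicates 1 and 2, where the squares lie at 4.75 to 4.99.

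Genes of cell division ran opposite to the targets. p53 lowers such genes indirectly, through p21 and the repressor complex DREAM, and 16 of them (Ccnb1, Ccnb2, Cdk1, Plk1, Cdc25c, Birc5, Foxm1, Bub1, Cdc20, Top2a, Mki67, Ccna2, Aurka, Aurkb, Mybl2 and E2f1) were listed, with earlier results of these data known. For Mki67 the MeVa2.1 libraries held 229.9, 128 and 541 CPM and those of MeVa2.1.dOVA 456, 121 and 318, while the values were 236, 45.0 and 535 for MeVa2.2 and 103, 56.9 and 467 for its dOVA line. Mki67, a marker of dividing cells, was lowest in replicate 2 of each line, and MeVa2.2.dOVA replicate 1 lay with that line's replicate 2. All 16 were lower in replicate 2 than in 3 (edgeR, 13.8% of all genes lower), with a median log2 fold change of -1.99, and 15 or 16 were lower in each of the 12 fits without 1 library. In replicate 2 against 1, 5 of 16 were lower, where 1.9% of all genes were. Replicate 3 against 1 gave 0 calls by edgeR, 9 at an unadjusted p under 0.05 (2624 of all 13985 tested genes) and 4 by DESeq2 (910 of all). Between lines no division gene was called by edgeR in any of the 5 comparisons, none had an unadjusted p under 0.05, and DESeq2 called 0. All 16 had a negative log2 fold change in MeVa2.2.dOVA against MeVa2.2 (median -0.53), and 12 did in MeVa2.1.dOVA against MeVa2.1 (median -0.15). In MeVa2.1.dOVA against MeVa2.2.dOVA all 16 were positive (median 0.50), and between the parents 9 were (median 0.12). The mean log2(CPM + 0.5) of the division list over libraries ranged from 4.50 to 7.06, and that of the p53 genes from 5.13 to 6.46. The lowest division value was that of MeVa2.2 replicate 2, where the p53 genes stood at 5.91, below the 3 libraries highest in them.

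Further p53 targets outside the 33 went the same way for some genes. Of 25 listed, 24 were tested, and 6 were higher in replicate 2 than in 3 (edgeR, 11.6% of all genes higher): Slc19a2, a thiamine transporter, at 1.32, Abhd4 at 1.16, Pmaip1, the death gene Noxa, at 1.13, Foxo3 at 0.97, Rps27l at 0.91 and Triap1 at 0.80 on the log2 scale. Steap3 was lower, at -1.15. Without MeVa2.1.dOVA replicate 2, 2 were higher and none lower. The dOVA lines differed in 4 of the 24, where 11.3% of all genes were called, with Pmaip1 higher in MeVa2.1.dOVA (log2 fold change 2.14, SE 0.60, adjusted p = 0.0414) and Sesn2, Cd82 and Lif lower. Bbc3, the death gene Puma, reached 50.5 and 58.4 CPM in MeVa2.2.dOVA replicates 1 and 2, with a median of 15.8 CPM over all libraries, and was not called in any comparison.

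Of 18 genes of the p53 family and upstream of p53, 16 were tested. In replicate 2 against 3, 1 of them was called higher and 2 lower, where 11.6% and 13.8% of all genes were. Cdkn2a was at 0 counts in all 6 libraries of the MeVa2.1 lines and at 0.427 to 1.01 CPM in the 6 of the MeVa2.2 lines. It passed the filter on low counts only through the MeVa2.2 lines, so its test is not given. Mdm2 and Cdkn1a were high in libraries of both origins. Trp63 and Trp73, the other members of the family, reached no more than 0.185 and 0.459 CPM. The checkpoint kinase genes Chek1 and Chek2 were lower in replicate 2 than in 3 (log2 fold changes -1.04 and -0.64) and the ribosomal protein gene Rpl5, whose product can bind Mdm2, was higher (0.43). Daxx, a chromatin and p53 cofactor, was above its MeVa2.2 level in MeVa2.2.dOVA (log2 fold change 0.80), and MeVa2.1.dOVA was lower than the latter (-0.96). Atm and Atr, which signal DNA damage to p53, were not called in any comparison.

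Some immune, melanocyte and fibroblast markers differed by replicate number, while the ranges of their summed levels partly overlapped. The summed level of 14 immune markers was 6.63 to 14.2 CPM in the libraries numbered 1, 1.60 to 4.01 in those numbered 2 and 2.56 to 5.78 in those numbered 3, and only Cd14 and Lyz2 passed the filter. For 8 melanocyte markers these ranges were 16.6 to 58.3, 9.07 to 20 and 11.9 to 21.1 CPM, and for 9 fibroblast markers 1540.2 to 3886, 1596 to 2778 and 3262 to 5804 CPM. Most of the fibroblast sum came from Col1a1 and Col1a2. Past the threshold in replicate 2 against 3, the fibroblast genes Col1a1 (log2 fold change -1.45), Col1a2 (-0.81) and Pdgfrb (-1.98) were lower. The melanocyte genes Tyrp1 and Dct were at 0 in every library numbered 2. Of the libraries numbered 3, only that of MeVa2.2 held them, at 2.09 and 2.28 CPM, so their tests are not given. In the same comparison, Ddit3 (1.33) and Nupr1 (0.81) were higher among 12 genes of the integrated stress response, Cxcl10 among 16 interferon-stimulated genes, and mt-Nd4 (0.41) and mt-Nd5 (0.47) among 6 tested mitochondrial mRNAs. Cd14 was lower in replicate 2 than in 1. Lyz2 lay at 0.710 to 1.79 CPM in the libraries numbered 1 and at no more than 0.158 CPM in the others. It passed the filter only through the former, so its test is not given. The part of these lists, of depth and of cell division in the p53 target levels was not tested.

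**Figure D5:**
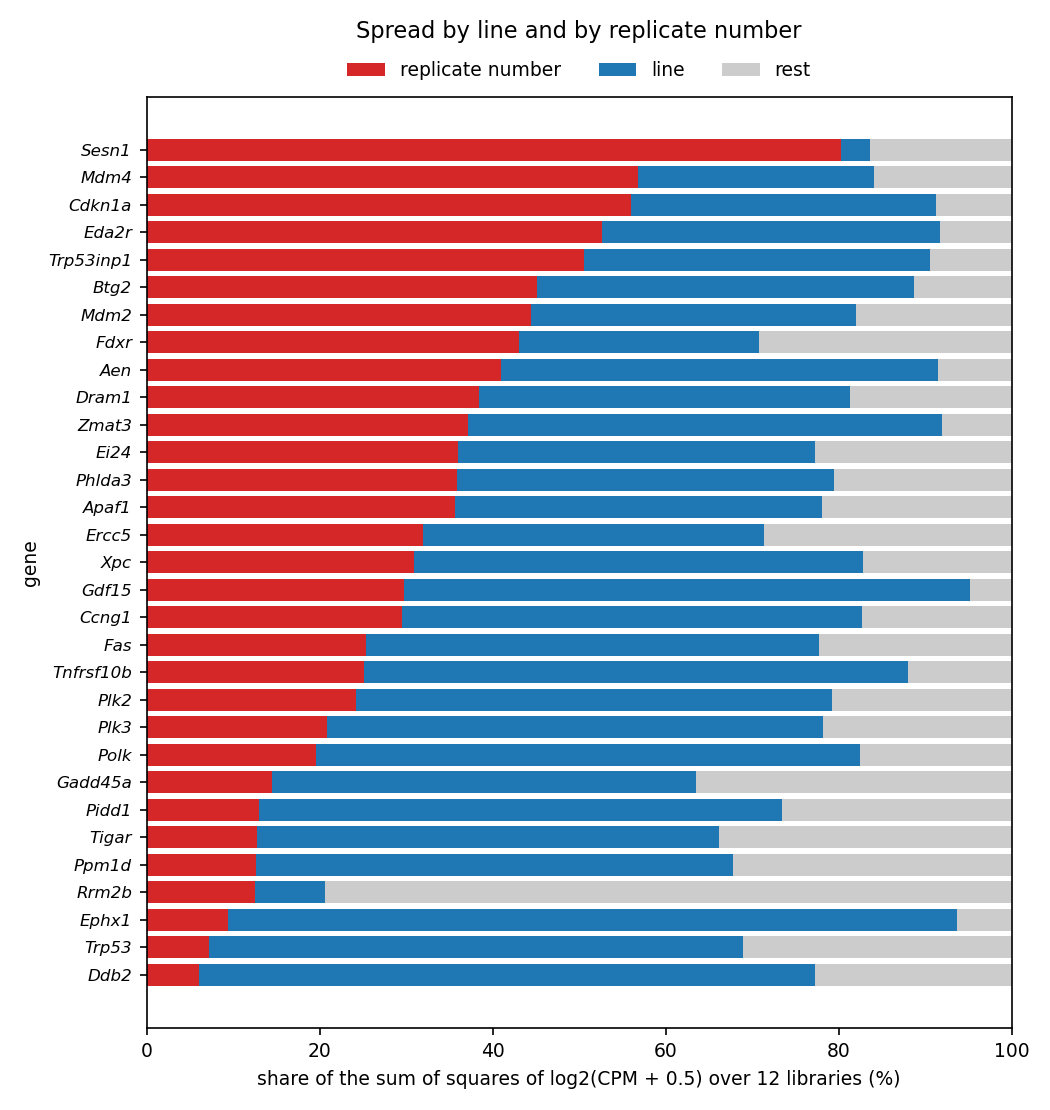
Share of each tested gene's sum of squares of log2(CPM + 0.5) over the 12 libraries that goes with the replicate number (red), the line (blue) and neither (grey), with genes ordered by the red share. Sesn1 has the largest red share (80.3%) and Ephx1 the largest blue share (84.3%).

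In this split the line has 3 degrees of freedom and the number 2, so the shares are read beside those of all genes. The median shares over the 31 genes were 50.6% for the line, 30.9% for the replicate number and 18.7% for neither, against 44.9%, 23.8% and 22.4% over all tested genes. Sesn1 (80.3%), Mdm4 (56.8%), Cdkn1a (56.0%), Eda2r (52.6%) and Trp53inp1 (50.5%) had over 50% of their spread with the number, and the genes with most of it by line included Ephx1 (84.3%), Ddb2 (71.2%) and Gdf15 (65.3%). Rrm2b followed neither, with 79.4% left over. A line share can rest on single libraries: for Mdm2 the MeVa2.1.dOVA libraries spanned 4.97-fold and the line means 3.27-fold.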

How the data were processed

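RNA was sequenced from 12 libraries of 4 cell lines, and groups and replicate numbers were taken from the sample titles. Raw read counts were deposited for each gene, as whole numbers. The 5 tally lines of a file (35.8% to 40.0% of a library) entered neither library sizes nor tests. The authors used HTSeq 0.10.0, STAR 2.6.0c and DESeq2 1.30.1 with the GRCm38 build, per the submitters' processing notes, and a stranded mRNA kit, per the labels. The strand setting of the counting is not given in the sources used here.

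Counts were tested in R 4.3.3 with edgeR 4.0.16: filterByExpr left 13985 genes, libraries were scaled by TMM, and glmQLFit and glmQLFTest were run over all 12 libraries with p adjusted over the tested genes (Benjamini-Hochberg, threshold 0.05). The SE of a fold change restates the F test. The common dispersion was 0.121 and the residual degrees of freedom were 8. The replicate number was tested in a model with line and number. CPM was computed over all gene counts, and RPKM with union exon lengths of GENCODE. Depth was 16181816 to 35627069 gene counts per library. No replicates agreed within counting noise (lowest chi-square per degree of freedom 27.3). Scripts were tested on simulated data. Alternatives were RLE scaling, no TMM factor, no filter, DESeq2 1.42.0, the replicate number as a block, the compared lines only, and each library left out. The 8 libraries numbered 1 and 3 were added after seeing the data.

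Same-numbered libraries deviated together from their line means (correlations of 0.488 to 0.534 for MeVa2.1 with MeVa2.1.dOVA, 0.328 to 0.429 for the parents and 0.105 to 0.516 for the dOVA lines, all above the limit of 0.1), so these comparisons are also given with the number as a block. For the dOVA lines the pairing was weak, as MeVa2.1.dOVA replicate 1 correlated more with MeVa2.2.dOVA replicate 3 (0.315) than with its replicate 1 (0.105). For MeVa2.2 with MeVa2.2.dOVA 1 pair fell short (0.0815), and its block result is given with that limit. The pairing comes from the data, not the labels.

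The members and all lists were chosen with earlier results of these data known. Values in every library are given for members called in the comparisons of lines or in the joint test of the number, for Trp53, Mdm2, Mdm4 and Ppm1d, and for Cdkn1a, Ccng1, Gdf15, Fas and Tnfrsf10b. The others are given by line mean, range and counts.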

Additional observations from a re-analysis of the deposited data

How the results depend on the processing

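The counts given here are of the 31 tested genes called. Where a count from an alternative fit, here or above, is given without that of all genes, it shows sensitivity alone. With no filter on low counts and with DESeq2, MeVa2.2.dOVA against MeVa2.2 gave 2 and 3 instead of 0, MeVa2.1 against MeVa2.2 gave 1 and 1 instead of 0, the dOVA lines gave 3 and 3 instead of 1, replicate 2 against 1 gave 13 and 13 instead of 4, and replicate 3 against 1 gave 2 and 2 instead of 1. A fit to the dOVA lines only, and one to the 8 libraries numbered 1 and 3, gave 2 each for the dOVA lines. The cause of these shifts was not tested. Under the replicate block the counts were 1 for MeVa2.1.dOVA against MeVa2.1, 2 for the parents and 7 for the dOVA lines. The dOVA libraries numbered 1 correlated at only 0.105. In MeVa2.2.dOVA against MeVa2.2, where the libraries share only a number and the deviations of same-numbered libraries correlated at 0.0815, 0.640 and 0.521, the block gave 8 (Mdm2, Cdkn1a, Btg2, Trp53inp1, Gdf15, Fas, Eda2r and Zmat3, with 7.75% of all genes called). It gave 0 for the difference of the dOVA differences.

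Leaving out 1 library at a time gave 0 to 0 calls for MeVa2.1.dOVA against MeVa2.1, 0 to 1 for MeVa2.2.dOVA against MeVa2.2 and for the parents, 1 to 5 for the dOVA lines, 0 to 0 for the difference of differences, 6 to 17 for the joint test of the number, 0 to 11 for replicate 2 against 1, 0 to 1 for replicate 3 against 1 and 10 to 21 for replicate 2 against 3. Of 675 alternatives to the 42 single-gene calls, 499 kept the call and 176 lost it. The joint test of the number has no direction, and among the alternatives to the other calls 0 reversed direction. Scaling moved the median of all genes by at most 0.0852 in size on the log2 scale. Low counts limit Perp and Bcl2l15.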
